A study of Macaca fascicularis with 4 samples.

Results

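The 9 genes described here encode apolipoproteins, the protein parts of the particles that carry lipid in blood: APOA1, APOA2, APOA4, APOA5, APOB, APOC1, APOC3, APOE and APOF. They bear apolipoprotein names and were chosen with earlier results of these data known. Other genes of such names, among them APOD and APOL6, are counted in a separate list. The 9 are among 13982 genes named in a survey of tissues of the cynomolgus monkey (Macaca fascicularis) by full-length RNA sequencing. The 4 libraries came from liver, from muscle, and from 2 tissues labelled oWAT and sWAT; WAT commonly stands for white adipose tissue. Every library is a pool of RNA from 5 monkeys, so each tissue has 1 library, no replicate, and no estimate of the spread between animals. The labels state no age, sex, diet or treatment of the monkeys.

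Triglyceride and cholesterol leave the liver in particles built around APOB, which stays with its particle until it is cleared. The smaller apolipoproteins move between particles, where they stabilise the surface, regulate lipases and lipid transfer, or bind receptors. The liver is the main source of most of them, some are also made by the intestine, and APOE is in addition made by macrophages, adipocytes and other cells outside the liver.

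Counts assigned to genes totalled between 383896 and 439872 per library, and levels are given in CPM, the count scaled to that total. A single count was worth 2.27 to 2.60 CPM. Where 0 counts were observed, a floor of 3 counts stands in for them, which is 7.81 CPM in sWAT, 7.56 in oWAT and 6.82 in muscle. The exact 95% intervals of 0 counts reach somewhat higher, to 9.61, 9.30 and 8.39 CPM. A fold over that floor is written "at least" and is not an interval bound, so the smaller exact lower bound is given beside it for each member. Tissue markers followed the labels: the liver library held 61515 counts of ALB (albumin), muscle 15827 of ACTA1 (skeletal actin), and oWAT and sWAT 915 and 1117 of ADIPOQ (adiponectin). Intervals are exact 95% intervals and cover counting error only, since each tissue has 1 library. The reads carry no molecular identifiers in these files, so copies of the same molecule cannot be told apart and the intervals may be too narrow. Transcript lengths were not used, so levels are compared between libraries for the same gene and not between genes.

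The 9 genes together had 4214 liver counts, 205 sWAT counts, 106 oWAT counts and 13 muscle counts. This was 0.963% of the liver library (0.934 to 0.992), 0.00296% of muscle (0.00157 to 0.00505), 0.0267% of oWAT (0.0219 to 0.0323) and 0.0534% of sWAT (0.0463 to 0.0612). The liver sum rests in large part on APOB, with 2934 of the 4214 counts, and 1280 remained without it. All 9 genes were detected in liver, whereas 3 were detected in oWAT, 2 in sWAT and 1 in muscle. Outside liver the counts of the family were nearly all of APOE. This gene made up 10.2% of the family's liver counts, but 97.2% of its oWAT counts and 98.5% of its sWAT counts. In muscle it made up 100% of the 13 counts (75.3 to 100). These are shares of counts, without regard to transcript length.

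**Figure D1:**
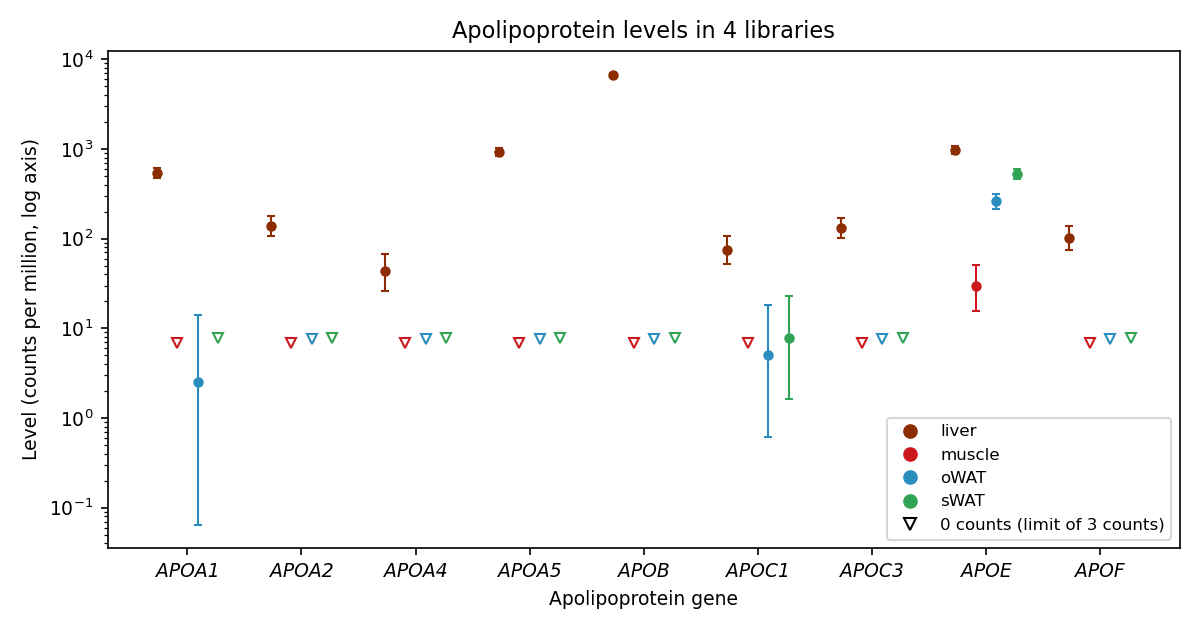
Level of each apolipoprotein gene (CPM, log axis) in the liver, muscle, oWAT and sWAT libraries, 1 library each. Points are levels with exact 95% Poisson intervals, and open triangles stand at the limit of 3 counts where 0 counts were observed. APOE is the gene with points well above that limit in all 4 libraries, from 29.6 in muscle to 978 in liver, while the other 8 genes lie far above it in liver only.

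A gene was called higher in liver where it had at least 10 liver counts and the lower bound of the interval of the fold was above 2 against each of the other 3 libraries. By this rule 8 of the 9 apolipoproteins were higher in liver, the exception being APOE. Across all genes with at least 10 liver counts, the rule called 533 of 4944, or 10.8%. As the members were chosen with earlier results known, this share is given for scale and is no test of the 9. In single pairs it called all 9 members over muscle (17.7% of genes), all 9 over oWAT (12.9%) and 8 over sWAT (13.6%). Only APOE had at least 10 counts in both adipose libraries, so it alone could be called higher there than in liver and muscle. It was not called, beside 233 of the 5520 genes with such counts, or 4.22%. With TMM and DESeq2 scaling, other ways of setting library sizes, the pattern was called for 68 and 71 genes and again not for APOE. The median log2 ratio of liver to the highest other library was 6.68 for the 9 genes after adding 0.5 counts, and 4.08 with zeros set to the limit of 3 counts. Over all 10127 genes with at least 10 counts in the 4 libraries together these medians were -1.34 and -1.36. Of the 9 genes, 6 had 0 counts in all 3 other libraries, a pattern seen in 200 of the 4944 genes, or 4.05%.

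APOB, around which very-low-density and low-density lipoproteins are built, had 2934 counts in liver (6705 CPM, 6465 to 6952) and 0 in muscle, oWAT and sWAT. The liver library therefore stood far from the other 3, which did not differ from each other in any detectable way. The liver level of APOB was at least 983-fold higher than that of muscle, at least 887-fold higher than that of oWAT and at least 858-fold higher than that of sWAT. The exact lower bounds were 799, 721 and 697.

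The apolipoproteins of high-density lipoprotein followed the same pattern. APOA1, the main protein of that particle and the activator of the cholesterol-esterifying enzyme LCAT, had 234 counts in liver (535 CPM, 468 to 608), 1 in oWAT, and 0 in both muscle and sWAT. The single oWAT count gave a ratio of liver to oWAT of 212 with a wide interval (37.7 to 8416), and the fold was at least 68.4 over sWAT (exact lower bound 55.2) and at least 78.4 over muscle (63.3). ALB, which had 61515 counts in liver, also had a single count in oWAT and 0 in muscle and sWAT, and whether the oWAT count of APOA1 came from liver RNA was not tested. APOA2, the second protein of the particle, had 61 counts in liver (139 CPM, 107 to 179) and 0 elsewhere, a fold of at least 17.8 over sWAT (exact lower bound 14.1). APOF, known as an inhibitor of cholesteryl ester transfer between particles, had 45 counts in liver (103 CPM, 75.0 to 138) and 0 elsewhere, a fold of at least 13.2 over sWAT (exact lower bound 10.3).

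The genes whose products regulate triglyceride clearance were also confined to the liver library among these 4, with APOC1 as a partial exception. APOA5, which promotes the action of lipoprotein lipase, had 402 counts in liver (919 CPM, 831 to 1013) and 0 in the other 3, at least 118-fold higher than in sWAT (exact lower bound 95.2). APOC3, which opposes that lipase and slows particle uptake, had 58 counts in liver (133 CPM, 101 to 171) and 0 elsewhere, at least 17.0-fold higher than in sWAT (exact lower bound 13.4). APOA4, which in primates is known mainly as a product of the intestine, had 19 counts in liver (43.4 CPM, 26.1 to 67.8) and 0 in muscle, oWAT and sWAT. Its fold over sWAT was at least 5.56, with an exact lower bound of 4.09. At these liver counts the size of such a bound reflects depth, and a larger fold in APOB than in APOA4 does not show that APOB was the more restricted.

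APOC1, a small apolipoprotein that inhibits lipid transfer and particle uptake, had 33 counts in liver, 3 in sWAT, 2 in oWAT and 0 in muscle. Its level was 75.4 CPM in liver (51.9 to 106), 5.04 in oWAT (0.610 to 18.2) and 7.81 in sWAT (1.61 to 22.8). Liver exceeded sWAT by a ratio of 9.65 (3.03 to 49.2) and oWAT by 15.0 (3.83 to 129), and it was at least 11.1-fold above muscle (exact lower bound 8.50). The ratio of sWAT to oWAT was 1.55 (0.178 to 18.6), so their order could not be told at this depth, and the same held for either of them against muscle.

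**Figure D2:**
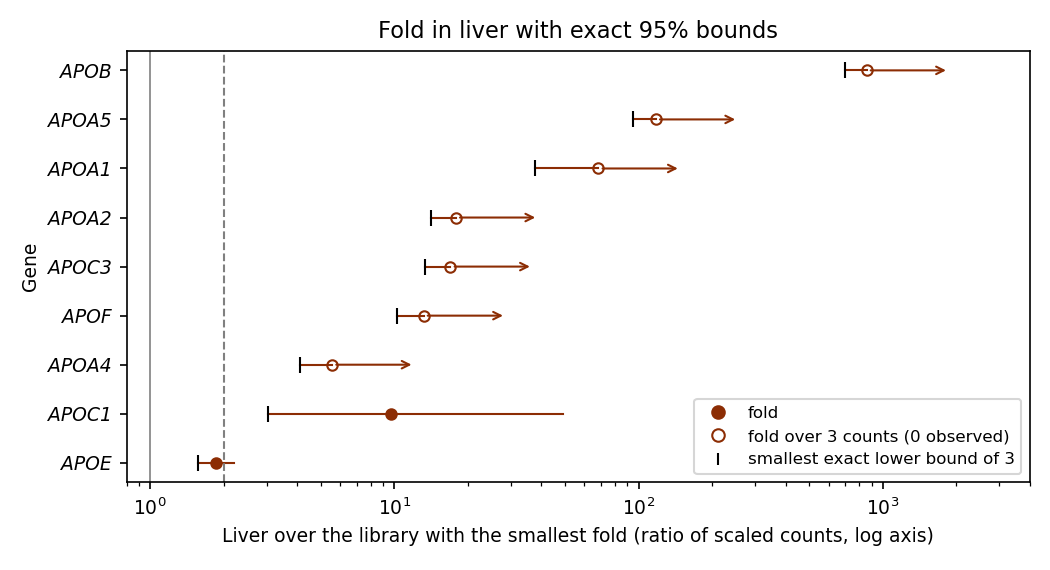
Fold of each apolipoprotein gene in liver over sWAT (log axis), which gave the smallest fold; for the 6 genes at 0 in all 3 other libraries this is because the sWAT total is the smallest. Filled points are ratios with exact 95% intervals, open points with arrows are folds over 3 counts where 0 were observed, and ticks mark the smallest exact lower bound over the 3 other libraries, which for APOA1 is that over oWAT (37.7). The dashed line at 2 is the bound for a call; 8 genes have ticks to its right, from 3.03 for APOC1 to 697 for APOB, and APOE has its tick at 1.57.

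APOE, the ligand through which remnant particles are bound and taken up at the cell surface, was the one member with substantial counts outside liver. It had 428 counts in liver, 202 in sWAT, 103 in oWAT and 13 in muscle. The corresponding levels were 978 CPM (888 to 1075), 526 CPM (456 to 604), 260 CPM (212 to 315) and 29.6 CPM (15.7 to 50.5). The order was therefore liver, sWAT, oWAT, muscle, and the intervals of all 4 libraries were apart.

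Each step of that order exceeded counting error as these intervals measure it. APOE in liver was 1.86 times its sWAT level (1.57 to 2.21), which missed the call at 2, and 3.77 times its oWAT level (3.03 to 4.72). In sWAT it was 2.03 times its oWAT level (1.59 to 2.60), which was not called. No other member had at least 10 counts in either of these libraries, so none could be called. Over the genes that had them, 0.767% were called higher in sWAT and 1.43% higher in oWAT. Against muscle, APOE was called higher in both adipose libraries, 8.78-fold in oWAT (4.92 to 17.1) and 17.8-fold in sWAT (10.2 to 34.0), where 11.4% and 11.2% of all genes were called. Liver exceeded muscle 33.1-fold (19.1 to 62.7), in the comparison that called 17.7% of genes.

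The comparisons of liver with the adipose libraries depended on scaling. The median log2 ratio of liver to sWAT over 7996 genes was -0.72, so a typical gene had a lower share of the liver library, and APOE at 0.89 lay 1.61 above that median. The factors of edgeR (trimmed mean of M-values, TMM) shifted all liver to sWAT ratios by 0.86 on the log2 scale, and DESeq2's size factors by 0.80. APOE then stood at 3.36-fold (2.84 to 3.997) and 3.25-fold (2.74 to 3.86) and was called, which made 9 of 9. The ratio of liver to oWAT moved from 3.77 to 7.56 with TMM (6.09 to 9.47) and to 7.48 with DESeq2 scaling (6.02 to 9.37). Its distance from the median of all genes stays the same under any such scaling. The ratio of sWAT to oWAT was 2.25 with TMM (1.76 to 2.88) and 2.30 with DESeq2 scaling (1.81 to 2.95), not called in either case.

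**Figure D3:**
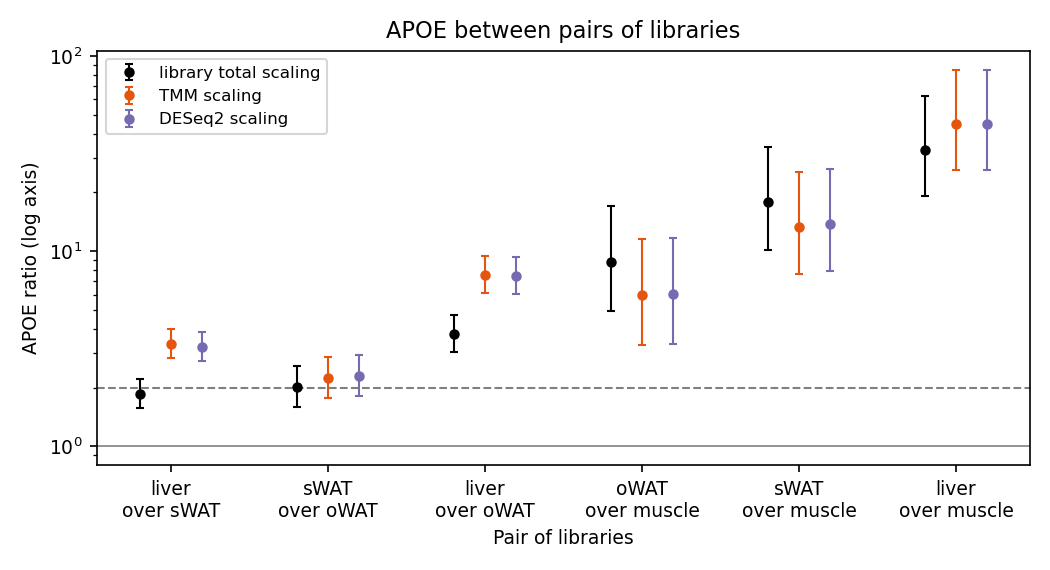
Ratio of APOE levels (log axis) for the 6 pairs of libraries, with exact 95% intervals, under scaling by library total, TMM factors and DESeq2 size factors. The dashed line at 2 is the bound for a call. The order of the libraries is the same under all 3 scalings, and the liver to sWAT pair moves from 1.86 to 3.36 and 3.25, where its interval clears the line.

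Markers of other cell types differed between the libraries in which APOE differed. Bulk libraries cannot tell apart more cells of a type from more RNA per cell. The 15 macrophage markers summed to 2051 CPM in oWAT and 1469 in sWAT, and to 759 in liver and 500.1 in muscle. Their sum was thus higher in oWAT than in sWAT, with 10 of 15 higher there and 4 higher in sWAT, the opposite direction to APOE. These are orders of CPM without intervals. A typical gene was also slightly higher in oWAT, with a median log2 ratio of oWAT to sWAT of 0.16 over 8255 genes. That median was 0.015 with TMM and -0.020 with DESeq2 scaling. TYROBP was at 0 in both adipose libraries, and AIF1 had 0 counts in oWAT and 2 in sWAT. CD68 had 151 counts in oWAT against 90 in sWAT, while CD163 had 33 against 62 and C1QA 6 against 8. Listed markers of lipid-associated macrophages numbered 11 and summed to 20227 CPM in oWAT and 18766 in sWAT, whereas liver had 2418 and muscle 2585; 8 of the 11 were higher in oWAT and 3 in sWAT. LPL, which is also high in adipose tissue, made up 7160 CPM of the oWAT sum and 9193 of the sWAT sum. None of the 11 was at 0 in either adipose library.

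The 10 adipocyte markers listed summed to 9005 CPM in oWAT and 9708 in sWAT, 5 higher in each, and to 705 CPM in muscle. In liver they summed to 3097 CPM, of which PCK1 made up 3028. Fibroblast markers summed to 18947 CPM in oWAT and 54728 in sWAT, with 7 of 10 higher in sWAT, and endothelial markers to 2593 and 4413, with 10 of 10 higher in sWAT. Of the fibroblast sums, COL1A1 made up 7571 and 31396 CPM and COL1A2 5129 and 17622. Smooth muscle and pericyte markers summed to 1578 CPM in oWAT and 2331 in sWAT, with 6 of 9 higher in sWAT. No marker of these 4 lists was at 0 in either adipose library. In liver, where APOE was highest, fibroblast, endothelial, and smooth muscle and pericyte markers summed to 231, 372 and 103 CPM. In muscle, where APOE was lowest, they summed to 12929, 1271 and 8803 CPM, with DES making up 7591 of the last. Mesothelial markers summed to 4070 CPM in oWAT, while all 8 were at 0 in sWAT. The part of any of these cell types in the APOE levels was not tested. Hepatocyte markers had counts for 3 of 12 listed genes in oWAT and for 2 in sWAT, summing to 388 and 805 CPM. Most of these counts were TF (transferrin), with 151 and 308 counts, whereas FGA, FGB, FGG, CPS1, CYP2E1, HPX and AMBP were at 0 in both.

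The genes whose spread over the 4 libraries was most like that of the detected members were found from tissue shares, each gene's CPM in a library over the sum of its 4 CPM values. APOE had shares of 54.5% in liver, 29.3% in sWAT, 14.5% in oWAT and 1.65% in muscle. Among 3249 genes with at least 100 counts, MAN2A1, PYGL and TMEM181 were closest, with summed absolute differences of 0.100, 0.103 and 0.110. PYGL, the liver form of glycogen phosphorylase, had shares of 53.8%, 25.0%, 19.6% and 1.51% in the same order. For APOC1 the closest were SULT1B1 (0.0266), ADH1B (0.0385) and IQGAP2 (0.0719), and for APOA1 they were OGDHL, GYS2 and AADAC, each with a single count outside liver, in oWAT. These likenesses rest on 4 libraries and carry no test. The other 6 members had counts in liver alone.

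In the RefSeq gene table for the assembly T2T-MFA8v1.1, which holds all 9 members, several of them are neighbours. APOA5, APOA4, APOC3 and APOA1 follow each other on 1 chromosome, and APOE and APOC1 lie side by side on another. All 4 genes of the first group were called higher in liver, although their liver counts ran from 19 to 402. In the second group APOC1 was called and APOE was not. APOA5, APOC1 and APOF overlap another gene in that table (ZPR1, LOC123570222 and STAT2). The sources used here do not say how the authors assigned shared reads, so the counts of these 3 carry that uncertainty. STAT2 had 63 counts in liver, 33 in sWAT, 30 in oWAT and 16 in muscle, while APOF had 0 outside liver.

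Genes that act with the apolipoproteins were read from 6 lists. Over all 10127 measured genes, 5.26% were called higher in liver and 2.30% in both adipose libraries. Of 20 genes of other apolipoprotein names or of proteins carried on the same particles, 13 were named in the counts and 11 were measured. Of these 11, 4 were higher in liver, which is not a share of all other apolipoproteins. CLU (clusterin, also called apolipoprotein J) was 3.48-fold over oWAT (3.02 to 4.02), and it was also 2.90-fold higher in oWAT than in sWAT (2.25 to 3.78), a direction opposite to that of APOE with a call that narrowly missed the bound under DESeq2 scaling (2.55-fold, 1.98 to 3.33). SAA4, SAA2 and APOL1 had 32, 17 and 19 liver counts and 0 elsewhere. APOL6, a member of the intracellular apolipoprotein L family, was instead higher in both adipose libraries, 14.5-fold in oWAT over muscle (7.40 to 32.6). APOD, a lipocalin, had 24 counts in oWAT, 16 in sWAT, 12 in muscle and 0 in liver.

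Assembly of APOB-containing particles takes place in the endoplasmic reticulum, and 5 of 21 measured genes of that process were higher in liver. MTTP, which loads lipid onto APOB, had 213 counts in liver, 2 in muscle and 1 each in oWAT and sWAT. Its ratio of liver to muscle was 107 (29.3 to 890). A1CF, a cofactor of APOB mRNA editing, had 104 counts in liver and 0 elsewhere (at least 30.4-fold over sWAT, exact lower bound 24.3). TM6SF2, which acts in particle lipidation, had 35 liver counts and 1 in muscle. It was at least 10.2-fold over sWAT (exact lower bound 7.89). SOAT2, a cholesterol esterifying enzyme, was 6.73-fold over sWAT (2.03 to 35.0). None of the list was higher in both adipose libraries. The median log2 ratio of liver to the highest other library was 0.71, against -1.34 over all genes.

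The partners of the apolipoproteins in plasma and at the cell surface were divided between tissues. Of 15 measured remodelling genes, 4 were higher in liver and 2 in both adipose libraries. PON1, an esterase carried on high-density lipoprotein, had 124 liver counts and 0 elsewhere (at least 36.3-fold over sWAT, exact lower bound 29.1). LPL, the lipase that APOA5 and APOC3 act on, was lowest in liver with 20 counts and was 12.5-fold higher in oWAT than in muscle (11.0 to 14.3). PLTP, which transfers phospholipid between particles, was 9.80-fold higher in sWAT than in muscle (4.90 to 22.2). Of 14 receptors and uptake genes, 3 were higher in liver, among them SDC1, a heparan sulfate proteoglycan that binds remnants with APOE (38.9-fold over sWAT, 17.6 to 107). CD36 and the scavenger receptor MSR1 were higher in both adipose libraries. LRP1, a remnant receptor that binds APOE, was not called, with 234 counts in sWAT, 172 in oWAT, 112 in liver and 50 in muscle.

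Among 8 measured genes of cholesterol efflux the pattern was divided as well. ABCG8, ABCB11 and ABCG5, which export sterol and bile salt into bile, were higher in liver, with 228, 125 and 45 counts there and 0 elsewhere. ABCG1, which passes cholesterol to high-density lipoprotein, was 5.59-fold higher in sWAT than in muscle (3.58 to 9.07) and was called in both adipose libraries. Of 22 transcription regulators known to act on apolipoprotein genes, 9 were higher in liver and 0 in both adipose libraries. HNF4A, a nuclear receptor of hepatocytes, and NR1H4, the bile acid receptor, had 96 and 99 liver counts and 0 in the other 3, the pattern shown by 6 of the 9 apolipoproteins. NR1I2, with 2 counts in oWAT, was at least 36.8-fold over sWAT (exact lower bound 29.5). PROX1 was 31.8-fold over muscle (13.3 to 99.2). NR1H3, the liver X receptor that is known to regulate APOE, had 21, 1, 26 and 11 counts and was not called.

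**Figure D4:**
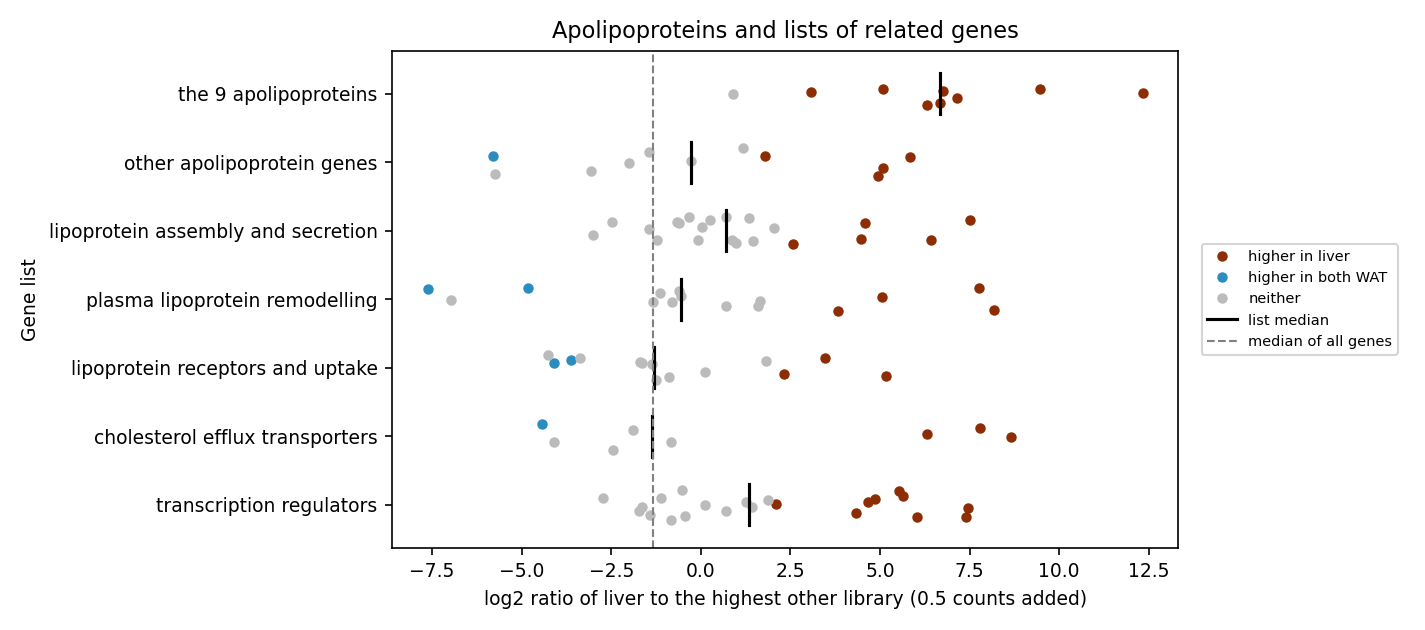
Log2 ratio of liver to the highest other library (0.5 counts added) for each measured gene of the 9 apolipoproteins and of 6 lists of related genes; each point is a gene, black bars are list medians and the dashed line is the median of all genes at -1.34. Brown points were called higher in liver and blue points in both adipose libraries. The 9 apolipoproteins have a median of 6.68, while the lists of receptors and of cholesterol efflux have medians of -1.31 and -1.37, beside the line.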

How the data were processed

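The authors deposited raw counts of reads per gene, in whole numbers; each file omits genes without counts, and these were set to 0. Per the submitters' processing notes the aligner was minimap2 2.24; the sources used here do not give the read filters, gene assignment, strand use, genome build or annotation. Sequencing was on a PacBio Sequel II instrument, per the labels' protocols. Tissues were taken from the labels, since the files of oWAT and sWAT carry other abbreviations in their names. Counts that name no gene (14.3% to 19.5% of a file) were left out of totals. Folds are ratios of counts scaled to library totals (437587 in liver, 439872 in muscle, 396797 in oWAT, 383896 in sWAT), with exact Clopper-Pearson intervals; no p-values were computed, as there is 1 library per tissue. Up to 4 called genes with most counts were named per list and direction, and up to 3 genes by likeness. Genes named beyond that rule after their values were seen are APOD, LRP1, NR1H3, STAT2, ZPR1, TOMM40, LDAH and single cell type markers such as CD68, CD163, C1QA, AIF1, TYROBP and TF. Some list genes are counted but not reported by name. The members and lists were chosen with earlier results of these data known. Alternatives were other scalings (edgeR 4.0.16 TMM factors and DESeq2 1.42.0 size factors, used for scaling alone, R 4.3.3), other totals, minimum counts, intervals and bounds. Python 3.11.15, SciPy 1.17.1 and pandas 2.3.3 were used. No sequences of these genes were analysed here.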

Additional observations from a re-analysis of the deposited data

How the results depend on the processing

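The count of apolipoproteins higher in liver lay between 7 and 9 in all 9 alternatives. It was 9, with APOE added, under TMM and DESeq2 scaling and with a bound of 1, 7 without APOA4 at a minimum of 20 counts, and 7 without APOC1 at a bound of 4. The ratio of APOE in liver to sWAT passed the bound with TMM (3.36) and DESeq2 scaling (3.25), and no member's direction turned. Between oWAT and sWAT only APOE reached the main minimum of 10 counts. The count of 0 called there became 1 (APOE) with a bound of 1, and the calls of APOE over muscle stayed in all 9 alternatives. With the counts that name no gene added to the totals, the share of the 9 genes became 0.778% in liver, 0.0215% in oWAT and 0.0445% in sWAT. With the 10 most abundant genes of each library left out of the totals, it became 1.28% in liver and 0.0630% in sWAT. Fewer counts in the totals raise a share by construction. Assembly genes higher in liver numbered 11 with TMM and 10 with DESeq2 scaling, and remodelling genes 7 with each, while calls over all genes went from 533 to 772 and 759. The median of all genes, as the log2 ratio of liver to the highest other library, was -0.57 with TMM and -0.59 with DESeq2 scaling, and the medians of other apolipoproteins and of remodelling genes turned from -0.28 to 0.16 and from -0.55 to 0.30 with TMM. No paired analysis was possible because each tissue has 1 library. Depth limits members with few liver counts, such as APOA4 with 19, and the 5 counts of APOC1 outside liver.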

Other observations

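ZPR1, which encodes a zinc finger protein and overlaps APOA5 in the RefSeq table, was the only gene called higher in liver among the 4 tested neighbours of the apolipoproteins that are not members (ZPR1, STAT2, LDAH and TOMM40). The same rule called 533 of 4944 genes, or 10.8%, and with 4 genes tested the count is not read as a trait of the neighbours. ZPR1 had 231 counts in liver, 51 in oWAT, 33 in muscle and 22 in sWAT, 4.11-fold over oWAT (3.02 to 5.68). APOA5 itself had 402 counts in liver and 0 in the other 3 libraries. Whether reads of APOA5 were counted for ZPR1 in liver was not tested. TOMM40, next to APOE, had 16, 35, 24 and 17 counts in liver, muscle, oWAT and sWAT, and its liver level was 0.460 times that in muscle (0.237 to 0.852). This ratio depends on scaling, so a lower TOMM40 level in liver than in muscle is not claimed. The median log2 ratio of liver to muscle over 7967 genes was -0.50, and TMM and DESeq2 scaling each raise such ratios by 0.44.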
